A study of Mus musculus with 12 samples.

Results

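The 41 genes described here encode the glucose and lactate transporters, the glycolytic enzymes and their regulatory kinases, together with genes that respond to low oxygen through the hypoxia-inducible factors (HIF). They were taken as a list, not from measured values: every non-control array probe whose gene name was on the list was used, which gave 74 probes of 41142. Of the genes, 39 stood under the listed name or a stated older form, and 2, Bhlhe40 and Kdm3a, stood under older names and were matched by accession. They are 41 of the 17729 genes tested, and the probe that represented each, the brightest on average, was well above background on all 12 arrays.

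Mouse embryonic stem cells of strain 129 were profiled on 12 single-colour arrays, 2 for each of 6 groups. The groups were undifferentiated cells, whose titles name leukaemia inhibitory factor (LIF, the cytokine that holds mouse embryonic stem cells undifferentiated), embryoid bodies (EB, aggregates that differentiate in suspension) at days 1, 3 and 4, and adherent monolayers (ML) at days 1 and 3. Replicates 1 and 2 of a group carry clone labels 1 and 2, and the submitters describe independent experiments by different persons. No transgene, deletion or treatment is given for any group. The medium and the oxygen level of the cultures are not given in the sources used here, nor is whether the clone number marks the person, so p-values measure only the spread between these arrays. A level below is the log2 of the processed signal relative to the array's 75th percentile, so 0 is a signal at that percentile, and a level is compared only with levels of the same probe.

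Glycolysis splits glucose into pyruvate, and lactate dehydrogenase turns pyruvate into lactate, which leaves the cell through monocarboxylate transporters. When oxygen is plentiful, prolyl hydroxylases of the Egln family mark the HIF alpha subunits for destruction. When oxygen is short the subunits persist, pair with Arnt and bind DNA at hypoxia response elements, and many glycolytic genes are among the known targets, as are Egln1 and Egln3 themselves. Pluripotent stem cells are known for a high rate of glycolysis.

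The core letters of a hypoxia response element are ACGTG or GCGTG. RefSeq promoter windows (build GRCm38.p6, 250 bases before to 50 after a start) were matched for 38 of the 41 genes, in 56 windows. Bhlhe40, Ndrg1 and Slc2a3 had none. On either strand, 35 of the 38 genes (92.1%) held the letters in at least 1 window, as did 64.1% of 11849 genes tested on the arrays that have a window and 46.7% of all 27025 genes with one. The letters stood at 2 or more separate places in 26 of the 38 genes (68.4%), against 31.7% and 19.2%. The E-box CACGTG, which contains ACGTG on both strands, was present for 5 genes (13.2%), against 11.2% and 8.09%. The median GC content was 62.2% in the windows of these genes, 60% in those of genes tested and 52.7% over all genes, and genes with several windows had more chances to hold a match. A match is a description of the letters and not a measured binding site. The windows of 5 genes that the results below return to are shown with the letters in capitals (CACGT and CACGC are the same letters read on the opposite strand): Slc16a1 and Egln1, both called between the culture forms, P4ha1 and Bnip3, with large differences that were not called, and Ldha, the upstream window of the lactate dehydrogenase gene. Slc16a1 held them at 4 separate places, Egln1 at 2, P4ha1 at 3, Bnip3 at 4 and Ldha at 5.
Slc16a1 (chr3:104638414-104638713, plus strand): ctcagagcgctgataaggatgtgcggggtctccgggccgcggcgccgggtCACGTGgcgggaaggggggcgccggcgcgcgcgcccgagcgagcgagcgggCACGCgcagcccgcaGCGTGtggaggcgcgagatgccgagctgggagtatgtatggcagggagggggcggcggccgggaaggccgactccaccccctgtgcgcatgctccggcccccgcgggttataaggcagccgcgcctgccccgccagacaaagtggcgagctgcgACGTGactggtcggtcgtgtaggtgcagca
Egln1 (chr8:124949205-124949504, minus strand): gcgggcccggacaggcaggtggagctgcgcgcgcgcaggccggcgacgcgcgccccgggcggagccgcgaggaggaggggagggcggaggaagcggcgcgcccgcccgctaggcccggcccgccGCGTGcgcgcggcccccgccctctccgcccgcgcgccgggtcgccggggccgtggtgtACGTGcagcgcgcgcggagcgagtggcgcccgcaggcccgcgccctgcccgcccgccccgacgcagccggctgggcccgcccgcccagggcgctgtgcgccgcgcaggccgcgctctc
P4ha1 (chr10:59323046-59323345, plus strand): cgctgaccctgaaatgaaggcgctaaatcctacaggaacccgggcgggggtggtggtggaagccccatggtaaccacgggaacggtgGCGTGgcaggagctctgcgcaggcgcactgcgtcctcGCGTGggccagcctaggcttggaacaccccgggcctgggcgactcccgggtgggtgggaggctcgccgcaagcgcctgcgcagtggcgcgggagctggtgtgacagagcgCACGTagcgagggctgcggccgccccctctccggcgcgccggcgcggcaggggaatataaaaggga
Bnip3 (chr7:138909457-138909756, minus strand): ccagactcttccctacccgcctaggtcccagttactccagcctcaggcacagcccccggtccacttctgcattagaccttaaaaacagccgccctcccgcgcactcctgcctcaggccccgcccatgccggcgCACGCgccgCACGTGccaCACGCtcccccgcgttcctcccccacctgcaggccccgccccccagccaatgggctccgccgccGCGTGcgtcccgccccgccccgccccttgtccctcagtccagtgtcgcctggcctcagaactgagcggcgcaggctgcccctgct
Ldha (chr7:46845554-46845853, plus strand): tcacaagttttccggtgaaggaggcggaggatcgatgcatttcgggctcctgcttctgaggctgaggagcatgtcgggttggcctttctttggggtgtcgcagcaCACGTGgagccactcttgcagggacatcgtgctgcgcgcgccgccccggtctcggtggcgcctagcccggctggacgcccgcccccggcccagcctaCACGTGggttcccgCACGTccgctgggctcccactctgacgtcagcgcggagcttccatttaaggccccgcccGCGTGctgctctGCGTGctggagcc

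Of the non-control spots, 52.1% to 63.8% were well above background on an array. The undifferentiated arrays shared a slide and a scan day of their own. EB days 1 and 3 shared a slide and ML days 1 and 3 another, all scanned on 1 day, and EB day 4 had its own slide, scan day and scanner. Culture form and slide therefore cannot be told apart in a same-day comparison, whereas the change from day 1 to day 3 lies within a slide in each form. Comparisons with undifferentiated cells or with EB day 4 cannot be told apart from slide and scan day. The 8 pluripotency markers were above background in every group. Their summed signal, in multiples of an array's 75th percentile, was 634 and 724 in undifferentiated cells and 35.8 and 50.4 at EB day 4.

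In 3 groups the listed genes were 2-fold or more apart between replicates more often than all genes. In undifferentiated cells 38 of the 41 (92.7%) were lower in replicate 1 than in replicate 2, against 47.4% of all genes, and 15 were at least 2-fold apart, against 11.9% of all genes. At EB day 3, 35 (85.4%) were lower in replicate 1, against 45.1% of all genes, and 7 were at least 2-fold apart, against 8.26%. At ML day 3, 19 (46.3%) were at least 2-fold apart, against 18.3% of all genes, 15 of them lower and 4 higher in replicate 1, and the arrays correlated at 0.971 across genes. In the other 3 groups no more than 1 of the 41 differed 2-fold, against 3.39% to 5.3% of all genes, although at ML day 1 the members' median absolute difference was 0.27 beside 0.21. At ML day 3 the 4 higher ones were Pfkfb3, Bhlhe40, Eno2 and Ndrg1, and the largest falls short of replicate 2 were those of Bnip3 and Ankrd37. The counts below are given with and without these arrays. Of the 36 calls on listed genes in all comparisons, 28 were lost when only the compared arrays were fitted, which is not repeated for each gene.

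**Figure D1:**
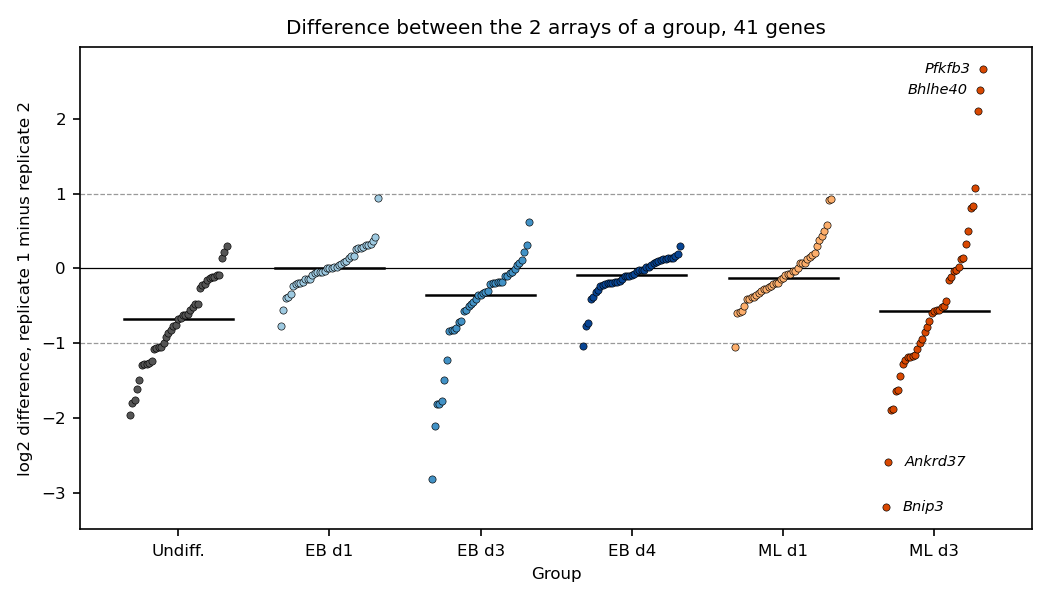
Difference between the 2 arrays of each group (replicate 1 minus replicate 2, log2, vertical axis) for the 41 genes, ordered by value within a group on the horizontal axis, with the group median as a bar and dashed lines at 2-fold. ML day 3 spreads furthest on both sides, and the undifferentiated points lie below 0 for 38 of 41 genes.

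Embryoid bodies were set against monolayers of the same day to ask whether the culture form altered these genes. At day 1 none of the 41 was called by limma at an adjusted p under 0.05, with 0.0677% of all genes called, and 1 of the 41 had an unadjusted p under 0.05, against 9.26% of all genes (Eno3, log2 difference -0.69 ± 0.22 SE). Their median log2 difference was 0.08, beside -0.06 over all genes. At day 3, 2 of the 41 were called, both higher in embryoid bodies, with 3.32% of all genes called and 1.61% called higher. They were Slc16a1 and Egln1. The median log2 difference at day 3 was 0.56, beside 0.02 over all genes, 32 of 41 differences were positive (52.3% of all genes), and 18 of the 41 had an unadjusted p under 0.05 (17.6% of all genes). Both EB arrays lay above both ML arrays for 23 of the 41, against 20.9% of all genes, and below them for 2, against 19.6%. In bulk RNA, fewer cells of a type and less RNA per cell cannot be told apart.

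This day 3 contrast depended on which ML array entered. Spike-in controls (mean log2 relative to the 75th percentile) read 0.67 on ML day 3 replicate 1. They read 0.97 to 1.22 on the other EB and ML arrays of days 1 and 3. The 8 pluripotency markers summed to 134 and 287 at ML day 3 and to 207 and 166 at EB day 3, with most weight on Dppa5a. Taken singly, 4 of the 8 were higher in embryoid bodies and 4 lower, with a median log2 difference of 0.02. The part of these differences in the result was not tested. Without ML day 3 replicate 2, 18 of the 41 were called, all higher in embryoid bodies, and the median of the 41 was 1.05. All genes called also went up there, from 588 to 2483 (14%, with 8.15% higher). Without ML day 3 replicate 1 none was called and the median was 0.33. The calls of Slc16a1 and Egln1 were also lost without EB day 3 replicate 2, or without any EB day 1, EB day 4 or ML day 1 array. Fewer of all genes were called in those fits too. Leaving out either undifferentiated array kept both calls and added Aldoc and Ero1a, and more of all genes were called there as well. With the 4 compared arrays fitted alone none was called. At day 3 the EB arrays also carried more signal of other cell types. The summed signal of 5 primitive streak and mesoderm markers was 54.2 and 84.9 at EB day 3 and 5.84 and 6.08 at ML day 3, and 3 of the 5 were called higher. That of 5 endoderm markers was 63.3 and 65.0 against 4.18 and 3.57, and all 5 were called higher. The 8 fibroblast markers measured summed to 7.09 and 11.1 against 14.6 and 16.4, with 1 called lower. A sum is weighted to its brighter probes. Of the 8 log2 differences 5 were negative and 3 positive, from -2.17 to 1.26 with a median of -1.43. Over all genes tested, 1.61% were called higher at day 3 and 302 of 17729 were called lower. The part of these markers in the result was not tested.

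Over days 1 and 3 together, none of the 41 was called by limma (2.32% of all genes were), with 13 at an unadjusted p under 0.05, against 17.1% of all genes, and a median of 0.33 beside -0.01. Without ML day 3 replicate 2, 12 were called, all higher, with 10.2% of all genes called and 5.67% higher, and without EB day 3 replicate 1, 2 were, with 2.43% of all genes. The change from day 1 to day 3 was then compared between the forms, which removes a constant slide difference. None of the 41 differed in that test, with 0.243% of all genes called, and 7 had an unadjusted p under 0.05, against 10.2% of all genes. The difference was positive for 35 of the 41, against 56.1% of all genes, with a median of 0.75 beside 0.07 over all genes, which became 0.29 without ML day 3 replicate 1 and 1.02 without replicate 2. Bnip3 was called without ML day 3 replicate 2 (4.13, adjusted p = 0.0407). With all 12 arrays a larger rise in embryoid bodies was not shown for any member.

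**Figure D2:**
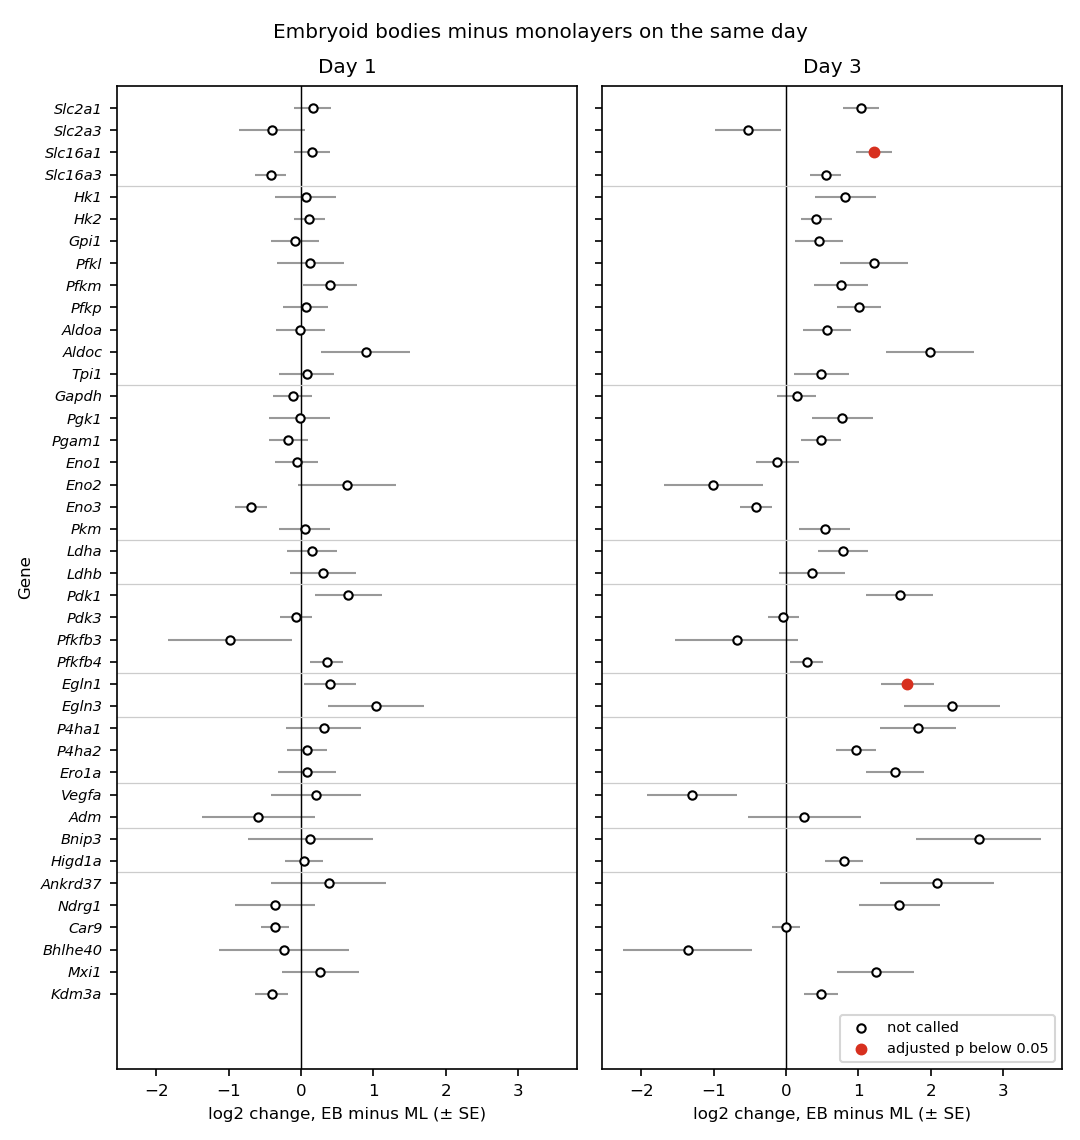
Log2 difference between embryoid bodies and monolayers (horizontal axis, point) with its SE (line) for each gene (vertical axis) at day 1 and day 3. Filled points mark Slc16a1 and Egln1, which were called at day 3. No gene was called at day 1.

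From day 1 to day 3 of embryoid bodies 4 of the 41 rose and none fell, with 5.42% of all genes called and 3.09% called higher. The members' median was 0.60, beside -0.08 over all genes. In monolayers 2 rose and 2 fell, with 12.4% of all genes called, 5.77% higher and 6.65% lower, so the members' share (9.76%) was not above the background, and their median was -0.05. That median became 0.13 with quantile normalization or the authors' values, -0.40 without ML day 3 replicate 2 and 0.20 without replicate 1. Without ML day 3 replicate 2 there were 14 calls, 5 higher and 9 lower, with 26.8% of all genes called, 10.6% higher and 16.3% lower. Without replicate 1 there was 1, with 4.96% of all genes called. Leaving out either EB day 1 array or EB day 3 replicate 2 left no member called in embryoid bodies, while leaving out EB day 3 replicate 1 gave 6, with 5.61% of all genes called, and leaving out either ML day 1 array left none called in monolayers.

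Against undifferentiated cells, 8 of the 41 fell by EB day 1 and none rose, with 13.4% of all genes called and 5.39% called lower. By ML day 1, 11 fell and 1 rose, with 18% of all genes called and 6.43% called lower. These comparisons share the undifferentiated arrays, so their likeness is no separate evidence. The members' medians were -0.76 and -0.75, beside 0.09 and 0.13 over all genes. With undifferentiated replicate 1 left out, 12 fell by EB day 1 and 13 by ML day 1, with 5.71% and 7.26% of all genes called lower, and the medians were -1.09 and -1.11. Without undifferentiated replicate 2 the medians were -0.29 and -0.42. Every fall called by EB day 1 was then lost, as was every one by ML day 1 except that of Egln1. Ldhb was higher by 1.33 at EB day 1 and by 1.03 at ML day 1. How far the calls over all genes changed in that fit is not given here. Leaving out either array of the day 1 group left no member called in that comparison. With the compared arrays fitted alone 3 were called by EB day 1 and 1 by ML day 1. Signal of fibroblast markers moved with this contrast. Of 10 listed, 8 were measured, and their summed signal was 153 and 42.9 in undifferentiated cells against 12.2 to 27.5 on the day 1 arrays, with 4 of the 8 called lower at EB day 1 and 2 at ML day 1. Their part in the result was not tested. Spike-in controls (mean log2 relative to the 75th percentile) read -0.24 and -0.08 on the undifferentiated arrays. On the day 1 arrays of both forms they read 1.02 to 1.22. The part of this shift in the result was not tested either.

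From EB day 3 to EB day 4, 1 of the 41 rose and 5 fell, with 12.7% of all genes called, 3.9% higher and 8.83% lower. Spike-in controls read -0.26 and -0.07 at EB day 4 and 0.97 and 1.10 at EB day 3. The part of this shift in the result was not tested. The members' median was 0.01 beside -0.09 over all genes, and it changed sign between scalings (-0.11 with normexp background correction and 0.07 with quantile normalization). None was called without EB day 3 replicate 1, without either EB day 4 array, or with the 4 arrays fitted alone.

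**Figure D3:**
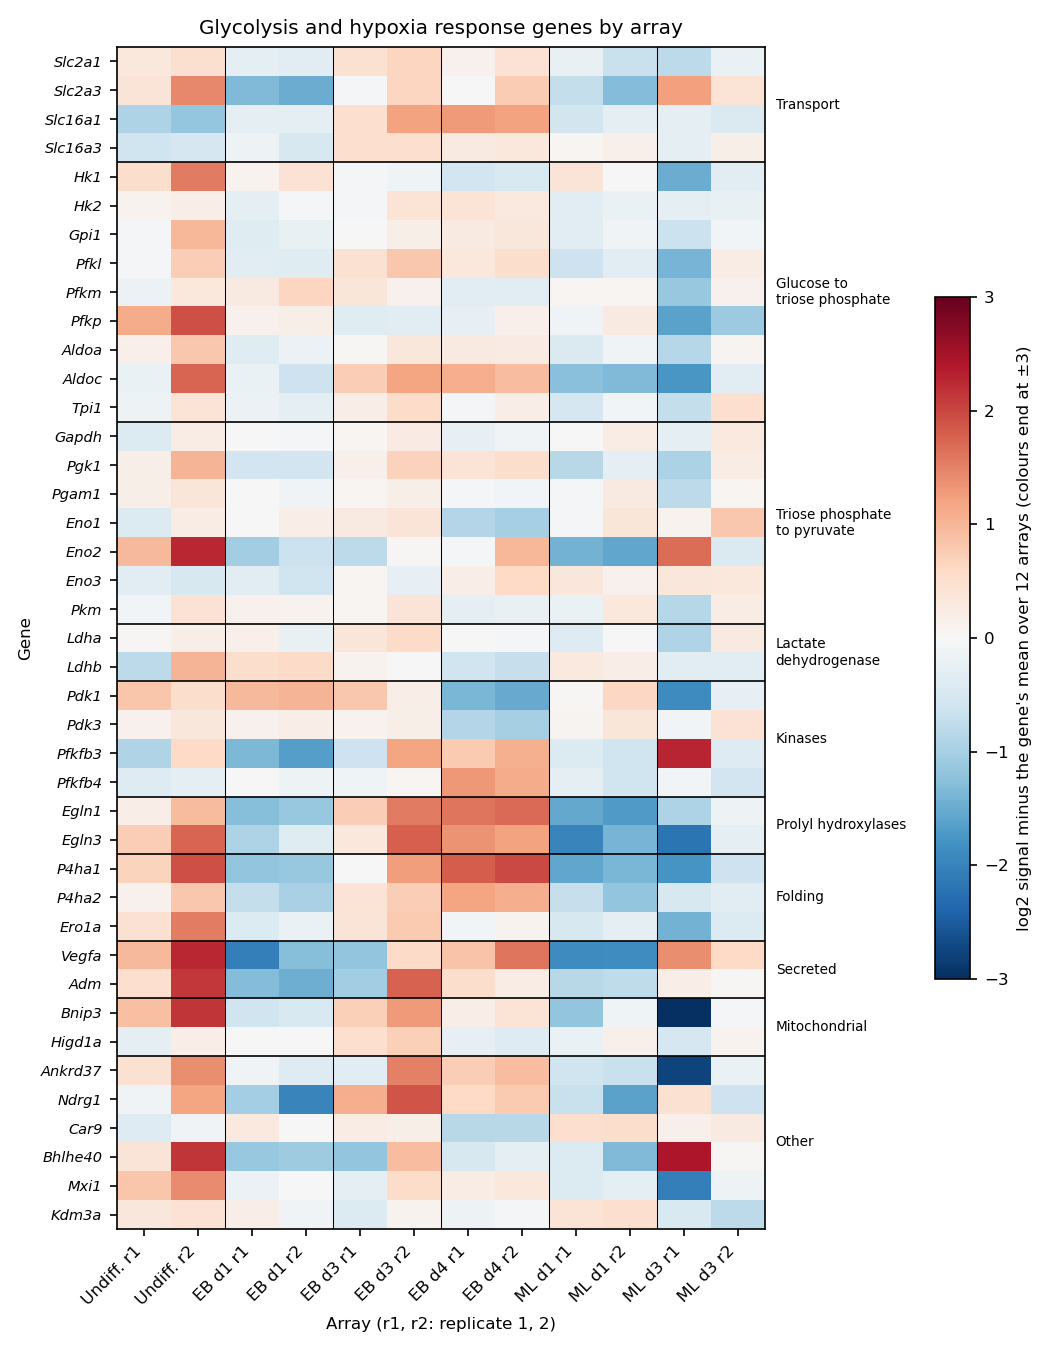
Level of each gene on each array minus the gene's mean over the 12 arrays (log2, colour scale), with genes grouped by role on the vertical axis and arrays on the horizontal axis. Egln1 and Egln3 lie above their own means in undifferentiated cells and at EB days 3 and 4, and below them at day 1 of both forms.

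Among the transporters, Slc16a1, which carries lactate and pyruvate across the plasma membrane together with protons, was read at chr3:104460941-104461000 (mm9). Its level was 3.88 and 3.66 in undifferentiated cells, 4.54 and 4.53 at EB day 1, 5.31 and 6.03 at EB day 3, 6.09 and 6.02 at EB day 4, 4.26 and 4.51 at ML day 1 and 4.51 and 4.38 at ML day 3. The EB day 3 and day 4 arrays were the highest of the 12. At day 3 it was 2.33-fold higher in embryoid bodies than in monolayers (log2 1.22 ± 0.25 SE, adjusted p = 0.0336), and it rose 2.19-fold from EB day 1 to day 3 (log2 1.13 ± 0.25, adjusted p = 0.0339). Both calls were lost with no filter on dim probes, with the 8 arrays of scan day 2 alone, and without any 1 array of EB day 4 or ML day 1. Its 3 probes gave 1.22 to 1.38 between the forms at day 3. They disagreed for EB day 1 against undifferentiated cells, from -1.39 to 0.93, so no direction is given there.

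Slc2a1, the glucose transporter found in most cells, had a level of 7.16 and 7.31 in undifferentiated cells, 6.57 and 6.52 at EB day 1, 7.29 and 7.48 at EB day 3, 6.96 and 7.27 at EB day 4, 6.60 and 6.16 at ML day 1 and 6.06 and 6.63 at ML day 3. Both EB day 3 arrays exceeded both ML day 3 arrays, but the log2 difference of 1.04 ± 0.25 was not called (adjusted p = 0.064). It was called with normexp background, quantile normalization and the authors' values. Slc2a1 fell by 0.85 ± 0.25 from undifferentiated cells to ML day 1 (adjusted p = 0.0471), a call lost with no filter on dim probes, with the replicate block and in 10 of the 12 fits that left out 1 array. Slc2a3, a high-affinity glucose transporter, measured 5.97 and 7.04 in undifferentiated cells, 4.27 and 4.10 at EB day 1, 5.54 and 6.25 at EB day 3, 5.58 and 6.35 at EB day 4, 4.88 and 4.29 at ML day 1 and 6.83 and 6.0 at ML day 3. Its day 1 arrays were the lowest in both forms. It fell by 2.32 ± 0.45 by EB day 1 (adjusted p = 0.0159) and by 1.93 ± 0.45 by ML day 1 (adjusted p = 0.0238), and rose by 1.84 ± 0.45 from ML day 1 to day 3 (adjusted p = 0.0317), the last of these lost with no filter on dim probes or with the mean of the gene's probes. Slc16a3, a lactate exporter, was not called in any comparison, and its day change was larger in embryoid bodies by 0.96 ± 0.30 with adjusted p = 0.289.

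**Figure D4:**
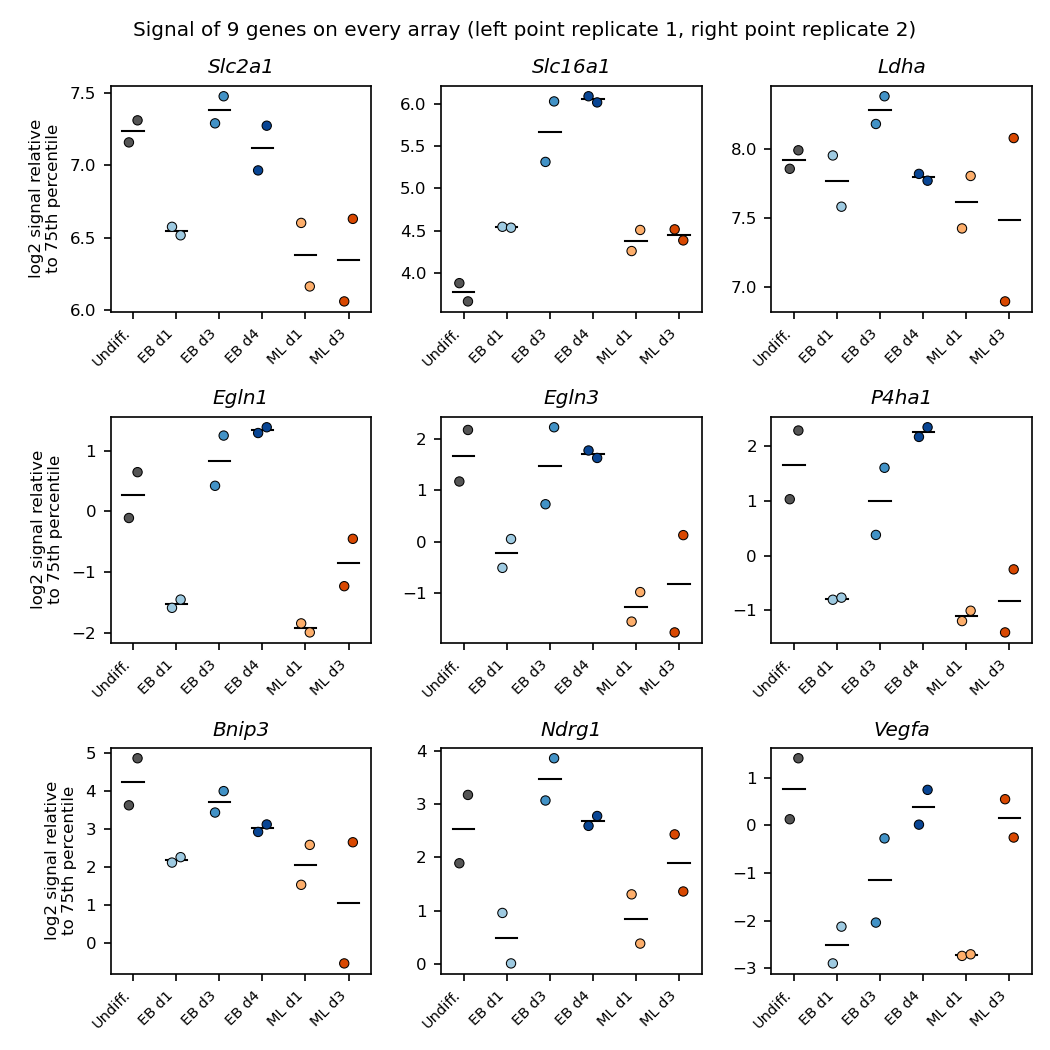
Level (log2 signal relative to the array's 75th percentile, vertical axis) of 9 genes on each array, by group on the horizontal axis, with replicate 1 as the left and replicate 2 as the right point and the group mean as a bar. Slc16a1 and Egln1 stay below their EB day 3 values on both ML day 3 arrays, whereas Bnip3 differs by 3.19 log2 units between the ML day 3 arrays.

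The 9 enzymes from hexokinase to triose phosphate isomerase, which prime and split the sugar, were not called between the forms. All 9 differences at day 3 were positive, from 0.42 to 1.98 with a median of 0.76, and both EB arrays lay above both ML arrays for 7, against 20.9% of all genes. Hk1, Hk2, Gpi1, Pfkl, Pfkm, Aldoa and Tpi1 were not called in any comparison. Aldoa, the muscle-type aldolase, measured 8.72 and 9.39 in undifferentiated cells, 8.20 and 8.38 at EB day 1, 8.60 and 8.90 at EB day 3, 8.83 and 8.82 at EB day 4, 8.14 and 8.46 at ML day 1 and 7.72 and 8.66 at ML day 3. Its ML day 3 replicate 1 was the lowest array and undifferentiated replicate 2 the highest. The largest difference was that of Aldoc, the brain-type aldolase, singled out after its values were seen. It measured 1.36 and 3.32 in undifferentiated cells, 1.38 and 0.95 at EB day 1, 2.30 and 2.75 at EB day 3, 2.65 and 2.48 at EB day 4, 0.31 and 0.23 at ML day 1 and -0.18 and 1.26 at ML day 3, with a day 3 difference of 1.98 ± 0.61 (adjusted p = 0.126), which ran from 1.26 to 2.71 as arrays were left out.

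Pfkp, the platelet-type phosphofructokinase, measured 2.34 and 3.16 in undifferentiated cells, 1.35 and 1.40 at EB day 1, 0.86 and 0.91 at EB day 3, 0.99 and 1.37 at EB day 4, 1.12 and 1.5 at ML day 1 and -0.39 and 0.13 at ML day 3. The undifferentiated arrays were the highest and the ML day 3 arrays the lowest. On its brightest probe Pfkp fell by 1.37 ± 0.31 by EB day 1 (adjusted p = 0.0228) and by 1.44 ± 0.31 by ML day 1 (adjusted p = 0.0175). That probe fell by 1.44 ± 0.31 again from ML day 1 to day 3 (adjusted p = 0.0185). The 3 probes of Pfkp disagreed for EB day 1, from -1.83 to 0.10, so no direction is given for the gene there. They ranged from -2.40 to -0.20 for ML day 1 and from -1.44 to -0.42 for ML day 1 to day 3. Aldoc fell by 2.07 ± 0.61 by ML day 1 (adjusted p = 0.046), a call lost with quantile normalization, the authors' values, no filter on dim probes or the mean of the gene's probes. Aldoc also lost it in 9 of the 12 fits that left out 1 array.

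The 7 genes from Gapdh to pyruvate kinase, which carry out the energy-yielding steps, had a median day 3 difference of 0.15 between the forms and none was called. Gapdh, the dehydrogenase that makes NADH and a gene with many near-identical pseudogenes, measured 7.23 and 7.85 in undifferentiated cells, 7.66 and 7.61 at EB day 1, 7.70 and 7.89 at EB day 3, 7.38 and 7.54 at EB day 4, 7.63 and 7.86 at ML day 1 and 7.37 and 7.93 at ML day 3. All its levels lay between 7.23 and 7.93, and its EB and ML arrays overlapped at day 3. Eno1, the widespread enolase, measured 3.13 and 3.76 in undifferentiated cells, 3.53 and 3.74 at EB day 1, 3.81 and 3.91 at EB day 3, 2.66 and 2.55 at EB day 4, 3.49 and 3.89 at ML day 1 and 3.63 and 4.34 at ML day 3. Both EB day 4 arrays were below the other 10, and the gene fell by 1.26 ± 0.30 from EB day 3 to day 4 (adjusted p = 0.0275).

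Eno2 is the neuronal enolase. Its level was -1.13 and 0.16 in undifferentiated cells, -3.14 and -2.74 at EB day 1, -2.89 and -2.06 at EB day 3, -2.13 and -1.10 at EB day 4, -3.51 and -3.64 at ML day 1 and -0.42 and -2.52 at ML day 3. Both undifferentiated arrays were above every day 1 array, and the ML day 3 arrays stood 2.10 apart, with replicate 1 among the highest. It fell by 2.46 ± 0.68 by EB day 1 (adjusted p = 0.0445) and by 3.10 ± 0.68 by ML day 1 (adjusted p = 0.0192). The EB day 1 call was lost in 6 settings, among them quantile normalization and the authors' values. It was also lost in 9 of the 12 fits that left out 1 array. Pgk1, Pgam1, Eno3 and Pkm were not called in any comparison.

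Ldha, the lactate dehydrogenase subunit that favours lactate formation, measured 7.85 and 7.99 in undifferentiated cells, 7.95 and 7.58 at EB day 1, 8.18 and 8.38 at EB day 3, 7.82 and 7.77 at EB day 4, 7.42 and 7.80 at ML day 1 and 6.90 and 8.08 at ML day 3. Both EB day 3 arrays exceeded both ML day 3 arrays, which were themselves 1.18 apart, and the difference of 0.79 ± 0.35 was not called (adjusted p = 0.28). Ldhb, the subunit that favours pyruvate, gave 0.36 at day 3. Neither was called in any comparison.

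The kinases act at both ends of the pathway: Pfkfb enzymes set the level of an activator of phosphofructokinase, and Pdk enzymes switch off pyruvate dehydrogenase. Pdk1 measured 2.83 and 2.53 in undifferentiated cells, 2.97 and 3.02 at EB day 1, 2.82 and 2.21 at EB day 3, 0.63 and 0.49 at EB day 4, 2.04 and 2.63 at ML day 1 and 0.12 and 1.76 at ML day 3. The EB day 4 arrays and ML day 3 replicate 1 were the lowest. Pdk1 fell by 1.95 ± 0.47 from EB day 3 to day 4 (adjusted p = 0.029), and Pdk3 fell by 1.07 ± 0.22 (adjusted p = 0.0178). The second probes gave -0.70 for Pdk1 and -0.19 for Pdk3, and both calls were lost with the mean of a gene's probes. At day 3 Pdk1 was 1.57 ± 0.47 higher in embryoid bodies without being called (adjusted p = 0.116).

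Pfkfb4 measured -0.87 and -0.76 in undifferentiated cells, -0.50 and -0.64 at EB day 1, -0.63 and -0.44 at EB day 3, 0.82 and 0.62 at EB day 4, -0.77 and -1.08 at ML day 1 and -0.57 and -1.07 at ML day 3. Both EB day 4 arrays were above the other 10, and it was the member that rose from EB day 3 to day 4, by 1.25 ± 0.23 (adjusted p = 0.0113). Pfkfb3, singled out after its values were seen, was not called in any comparison. Its ML day 3 arrays read 3.96 and 1.29, the highest level of the 12 in replicate 1, and its EB day 3 arrays read 1.03 and 2.84.

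Both HIF prolyl hydroxylases were higher on both EB day 3 arrays than on both ML day 3 arrays. Egln1, the main oxygen-dependent hydroxylase of the HIF alpha subunits, was read at chr8:127433241-127433300 (mm9). Its level was -0.11 and 0.64 in undifferentiated cells, -1.59 and -1.46 at EB day 1, 0.42 and 1.25 at EB day 3, 1.29 and 1.38 at EB day 4, -1.85 and -2.0 at ML day 1 and -1.24 and -0.46 at ML day 3. All 4 day 1 arrays were below every other array, and both EB day 3 arrays were above both ML day 3 arrays. Egln1 was 3.20-fold higher in embryoid bodies at day 3 (log2 1.68 ± 0.36, adjusted p = 0.0412), and its 2 probes gave 1.67 and 1.68. The call was lost with quantile normalization, the authors' values, no filter on dim probes and the arrays of scan day 2 alone. It was also lost in 8 of the 12 fits that left out 1 array.

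Over time, Egln1 fell by 1.79 ± 0.36 by EB day 1 (adjusted p = 0.0175) and by 2.19 ± 0.36 by ML day 1 (adjusted p = 0.00901), and rose by 2.36 ± 0.36 from EB day 1 to day 3 (adjusted p = 0.0104). In monolayers the same step was 1.08 ± 0.36 and was not called (adjusted p = 0.0844). The difference between these steps, 1.28 ± 0.51, was not called either (adjusted p = 0.43). Egln3, the hydroxylase most strongly induced by hypoxia in many cells, measured 1.17 and 2.17 in undifferentiated cells, -0.51 and 0.05 at EB day 1, 0.73 and 2.23 at EB day 3, 1.77 and 1.63 at EB day 4, -1.56 and -0.98 at ML day 1 and -1.77 and 0.13 at ML day 3. Its ML day 3 arrays were 1.89 apart, and it was 2.30 ± 0.66 higher in embryoid bodies at day 3 without being called (adjusted p = 0.106). It fell by 2.94 ± 0.66 by ML day 1 (adjusted p = 0.0203).

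Of the folding enzymes, P4ha1 and P4ha2 are the alternative catalytic subunits of collagen prolyl hydroxylase, and Ero1a oxidises protein disulfide isomerase in the endoplasmic reticulum. P4ha1 measured 1.03 and 2.29 in undifferentiated cells, -0.81 and -0.77 at EB day 1, 0.38 and 1.61 at EB day 3, 2.17 and 2.35 at EB day 4, -1.20 and -1.01 at ML day 1 and -1.41 and -0.25 at ML day 3. The EB day 3 arrays were above all day 1 and ML day 3 arrays. P4ha1 fell by 2.45 ± 0.52 by EB day 1 (adjusted p = 0.0202) and by 2.77 ± 0.52 by ML day 1 (adjusted p = 0.0128). At day 3 it was 1.82 ± 0.52 higher in embryoid bodies without being called (adjusted p = 0.105).

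P4ha2 measured 2.53 and 3.21 in undifferentiated cells, 1.69 and 1.42 at EB day 1, 2.82 and 3.13 at EB day 3, 3.58 and 3.50 at EB day 4, 1.72 and 1.21 at ML day 1 and 1.93 and 2.09 at ML day 3. Its EB day 4 arrays were the highest. It fell by 1.31 ± 0.28 by EB day 1 (adjusted p = 0.0198) and by 1.40 ± 0.28 by ML day 1 (adjusted p = 0.0145), then rose by 1.42 ± 0.28 from EB day 1 to day 3 (adjusted p = 0.0232). Ero1a fell by 1.37 ± 0.40 by ML day 1 (adjusted p = 0.0446), a call lost with quantile normalization, the authors' values or no filter on dim probes. Ero1a also lost it in 9 of the 12 fits that left out 1 array. Its day 3 difference of 1.5 ± 0.40 between the forms had an adjusted p of 0.0854.

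Vegfa and Adm are secreted. Vegfa, the main growth factor of blood vessels, measured 0.13 and 1.41 in undifferentiated cells, -2.90 and -2.13 at EB day 1, -2.04 and -0.27 at EB day 3, 0.01 and 0.74 at EB day 4, -2.74 and -2.71 at ML day 1 and 0.55 and -0.26 at ML day 3. The day 1 arrays were the lowest in both forms, and at day 3 the ML arrays were above the EB arrays, although replicate 2 of each read almost the same. Vegfa fell by 3.28 ± 0.62 by EB day 1 (adjusted p = 0.0145) and by 3.49 ± 0.62 by ML day 1 (adjusted p = 0.0106), the largest falls among the 41. It rose by 2.87 ± 0.62 from ML day 1 to day 3 (adjusted p = 0.0195). The difference between the forms at day 3, -1.30 ± 0.62, was not called. Adm, the vasodilator peptide adrenomedullin, was not called in any comparison.

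Bnip3, a mitochondrial protein that marks mitochondria for removal, had the largest difference between the forms at day 3 and was singled out for it. It measured 3.62 and 4.86 in undifferentiated cells, 2.11 and 2.25 at EB day 1, 3.43 and 3.99 at EB day 3, 2.91 and 3.11 at EB day 4, 1.52 and 2.57 at ML day 1 and -0.55 and 2.64 at ML day 3. ML day 3 replicate 1 was the lowest array by over 2 log2 units, while replicate 2 lay above both EB day 1 arrays. The day 3 difference was 2.66 ± 0.86 (adjusted p = 0.147), 4.26 without ML day 3 replicate 2 and 1.07 without replicate 1. Higd1a, an inner mitochondrial membrane protein, measured 3.41 and 3.89 in undifferentiated cells, 3.71 and 3.70 at EB day 1, 4.20 and 4.41 at EB day 3, 3.44 and 3.31 at EB day 4, 3.49 and 3.84 at ML day 1 and 3.20 and 3.80 at ML day 3. The EB day 3 arrays were the highest of the 12. It fell by 0.93 ± 0.26 from EB day 3 to day 4 (adjusted p = 0.0494), but its second probe gave 0.42 for the same step. The call was lost with the mean of the probes and in 8 of the 12 fits that left out 1 array.

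Among the other hypoxia response genes, Ndrg1, a stress-responsive gene, measured 1.89 and 3.17 in undifferentiated cells, 0.96 and 0.01 at EB day 1, 3.07 and 3.86 at EB day 3, 2.59 and 2.78 at EB day 4, 1.31 and 0.38 at ML day 1 and 2.43 and 1.36 at ML day 3. The EB day 1 arrays and ML day 1 replicate 2 were the lowest, and both EB day 3 arrays were above both ML day 3 arrays. Ndrg1 fell by 2.05 ± 0.56 by EB day 1 (adjusted p = 0.0424). That call was lost with no filter on dim probes or the replicate block, and in 7 of 12 fits without 1 array. Ndrg1 rose 7.89-fold from EB day 1 to day 3 (log2 2.98 ± 0.56, adjusted p = 0.0199), the largest rise of the 4 called there. Between the forms at day 3 it gave 1.57 ± 0.56 (adjusted p = 0.178).

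Kdm3a, a histone demethylase, measured 2.69 and 2.77 in undifferentiated cells, 2.55 and 2.24 at EB day 1, 1.94 and 2.45 at EB day 3, 2.18 and 2.28 at EB day 4, 2.76 and 2.84 at ML day 1 and 1.88 and 1.55 at ML day 3. The ML day 1 arrays were among the highest and the ML day 3 arrays the lowest, and Kdm3a fell by 1.09 ± 0.23 between them (adjusted p = 0.0184). Car9, a cell-surface carbonic anhydrase often used as a hypoxia marker, rose by 0.76 ± 0.19 from undifferentiated cells to ML day 1 (adjusted p = 0.0282) and fell by 1.04 ± 0.19 from EB day 3 to day 4 (adjusted p = 0.0119), and both calls were lost with normexp background. Ankrd37, an ankyrin-repeat protein, Bhlhe40, a transcriptional repressor, and Mxi1, a Myc antagonist, were not called in any comparison. Their day 3 differences were 2.09, -1.36 and 1.24, and their ML day 3 arrays lay 2.59, 2.39 and 1.89 apart, with Bhlhe40 higher in replicate 1 and the others lower.

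Genes around the pathway were read from 4 further lists, whose calls were not checked gene by gene under the alternative settings. Of 15 genes of the HIF machinery, none was called between the forms at either day (medians -0.20 and -0.06). Hif1a, the oxygen-regulated subunit, was higher than in undifferentiated cells by 1.14 ± 0.31 at EB day 1 (adjusted p = 0.0441) and by 1.11 ± 0.31 at ML day 1 (adjusted p = 0.0404). Its undifferentiated arrays read 0.99 and 0.14, replicate 2 being the lower. In all, 2 of the 15 rose by EB day 1, the other being Crebbp, a histone acetyltransferase, and 7 by ML day 1, with none falling, against 7.98% and 11.6% of all genes called higher. Epas1, the alternative alpha subunit, fell by 3.02 ± 0.42 from EB day 1 to day 3 (adjusted p = 0.00643) and by 4.88 ± 0.42 in monolayers (adjusted p = 0.000737), and rose by 2.01 ± 0.42 from EB day 3 to day 4 (adjusted p = 0.0178).

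Of 25 further hypoxia response genes measured, 1 was lower in embryoid bodies at day 1, with 0.0677% of all genes called. At day 3, 2 were higher and 2 lower, with 3.32% of all genes called and 1.61% called higher. Lox, a collagen cross-linking enzyme, was not well above background at EB day 3 and at least 3.80-fold lower there than at ML day 3 (adjusted p = 0.00554). Flt1, a receptor of Vegfa, was 1.98 ± 0.30 higher on the log2 scale at day 3 (adjusted p = 0.0124), and Stc1, a secreted glycoprotein, was called higher with ML day 3 not well above background. Against undifferentiated cells 8 of the 25 fell by EB day 1 and none rose, against 5.39% of all genes called lower and 7.98% higher. By ML day 1, 7 fell and 1 rose, against 6.43% of all genes called lower and 11.6% higher. Ak4, an adenylate kinase, fell by 3.10 ± 0.41 and 2.69 ± 0.41 in those comparisons, and Loxl2, a relative of Lox, by 3.43 ± 0.50 and 2.29 ± 0.50.

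Of 21 other isozymes and genes of pyruvate entry measured, 1 was higher and 2 lower in embryoid bodies at day 3. Of all genes 3.32% were called there and 1.61% called higher. Pdhb, a subunit of pyruvate dehydrogenase, was lower by 1.19 ± 0.23 (adjusted p = 0.0272). Of the 7 genes of the pentose phosphate pathway, which branches from glycolysis to make ribose, none was called between the forms. Rpia, the isomerase that forms ribose phosphate, rose by 1.26 ± 0.20 by EB day 1 (adjusted p = 0.00848) and by 1.17 ± 0.20 by ML day 1 (adjusted p = 0.00912).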

How the data were processed

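Total RNA was isolated on silica columns, amplified and labelled with Cy3, and each of 12 samples was hybridised to its own whole mouse genome array, per the labels' protocols. Spot signals are intensity values as deposited, background-subtracted and detrended by Agilent Feature Extraction per the file headers, together with per-spot quality flags, the other kind of value per the file headers. The submitters' processing notes name version 9.5.1.1, and the headers 10.5.1.1, 10.7.3.1 and 10.7.1.1. The deposited values of the series, also intensity, have the same distribution in every column. Their columns correlated at 0.998 to 1.000 with the scanner files, and they served as an alternative. No column of per-sample values was left unassigned (0).

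Each processed signal was put on a log2 scale and the array's 75th percentile (non-control spots) was subtracted. Outlier spots were left out (51 to 172 an array), none was saturated, and spots of a probe were averaged. Of 41174 probes, 32 lacked a usable spot on some array and were dropped. Probes well above background on both arrays of at least 1 group were kept (26176). Names came from RefSeq accessions (24828 probes), current symbols (6037), single synonyms (1810) or the files (8467). The brightest probe on average represented a gene, giving 17729 genes, 14950 with a current symbol. Probe positions are the files' (mm9). Limma 3.58.1 in R 4.3.3 (with data.table version 1.17.8) was run on all 12 arrays with a mean for each of the 6 groups, leaving 6 residual degrees of freedom, with two-sided tests and Benjamini-Hochberg adjustment over all genes of a comparison. A gene was called at an adjusted p under 0.05, and errors of changes are SE. The number of arrays limits the precision, and signal over background limits it for dim genes. Where a group was not well above background, "at least" folds set its arrays to the dimmest signal that each array still measured well above background.

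The members, lists, tests and named genes were chosen with earlier results of these data known. Array values are given for members called between the culture forms, the 3 largest called changes of each other comparison, and the brightest member of each role. Up to 4 called genes of each further list could be named. The values of 2 genes of those lists are not reported here. Genes named outside this rule are marked as singled out or listed by their calls. Alternatives were quantile normalization, normexp background correction with an offset of 50, the deposited values, a strict filter or none on dim probes, averaging all probes of a gene, a replicate block, fitting only the compared groups, dropping each array in turn and, added after seeing the data, the 8 arrays of scan day 2 alone. Over all genes, differences between replicates 1 and 2 correlated between groups at -0.15 to 0.23, so the clone number was not taken as pairing. This correlation was not taken for the 41 alone. Of the 41, 46.3% (EB day 1) to 92.7% (undifferentiated) were lower in replicate 1, against 41.3% to 57% of all genes. Promoter letters were counted on both strands of RefSeq windows. Limma was tested on simulated data for EB against ML at day 3. It recovered 10 of 67 log2 changes of 1, 42 of 67 of 2 and 54 of 66 of 3, and called 6 unchanged genes. A gene not called is therefore not shown to be unchanged. Plots used Python 3.11.15 and matplotlib 3.10.9.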

Additional observations from a re-analysis of the deposited data

How the results depend on the processing

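No call on a listed gene changed direction under any alternative. Of 36 calls, 36 were kept with the strict filter, 34 with normexp background, 32 with quantile normalization and with the authors' values, 30 with the mean of a gene's probes, 27 with no filter, and 8 with the compared groups fitted alone, which leaves 2 residual degrees of freedom in a two-group comparison; of 10 calls the scan day 2 arrays allow, 7 were kept. The replicate block kept 33. It gave 5 listed genes called between the forms at day 3 (Egln3, P4ha1 and Ero1a added). Of all genes 3.44% were called there and 1.6% called higher. The block gave 2 listed genes over both days, and 5 genes in all at day 1 against 12. The clone numbers were not shown to pair the samples.

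Listed genes called moved from 2 to 0 at day 3 (no filter, compared groups alone, scan day 2 alone), from 4 to 7 for EB day 3 against day 1 (normexp), and with the compared groups alone from 4 to 1 for ML day 3 against day 1, 8 to 3 and 12 to 1 for EB and ML day 1 against undifferentiated cells, and 6 to 0 for EB day 4, where the mean of probes gave 3. Over all genes, EB against ML at day 1 gave 12, and 1 with no filter, 0 with the strict filter, 23 with the mean of probes and 3 alone. At day 3 it gave 588, 376 with no filter and 0 alone, and over both days 411 and 241. The difference of day changes gave 43, 6 with no filter, 26 with the strict filter, and 9 alone or with scan day 2. EB day 3 against day 1 gave 961 and 571 with no filter. Fitted alone, ML day 3 against day 1 gave 670 of 2202, EB and ML day 1 against undifferentiated 728 of 2369 and 278 of 3197, and EB day 4 against day 3 239 of 2257 (7603 with no filter, 5608 higher against 692). The split of higher against lower for EB day 1 was 1414 to 955, and 312 to 416 alone.

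With each array left out in turn, listed genes called ranged from 0 to 0 for EB against ML at day 1, 0 to 18 at day 3, 0 to 12 over both days, 0 to 1 for the difference of day changes, 0 to 6 for EB day 3 against day 1, 0 to 14 for ML day 3 against day 1, 0 to 13 and 0 to 16 for EB and ML day 1 against undifferentiated cells, and 0 to 7 for EB day 4. Over all genes the ranges were 1 to 14, 112 to 2483, 164 to 1801, 0 to 297, 104 to 1377, 378 to 4757, 203 to 3691, 291 to 4511 and 337 to 3214. A group left with 1 array is assumed to vary like the others. The causes of these moves were not tested.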
